A study of Mus musculus with 9 samples.

Results

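A set of 10 genes that are widely read as signs of an M1-like, proinflammatory state of tumor-associated macrophages (TAMs) was examined, namely Il1b, Il1a, Tnf, Il6, Il12b, Nos2, Ptgs2, Cd80, Cd86 and Cd40. They were taken by name, with earlier results of these data known, and are 10 of the 50385 genes that could be followed by name through all 9 tumors. All 10 were found in every tumor. Cd86 shared its entry with the gene model Gm49662 in 4 tumors (PBS tumor 1, nonresponsive tumors 1 and 2 and responsive tumor 3), and each of the other genes had an entry of its own.

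The tumors were orthotopic Hepa1-6 tumors, grown from a mouse hepatoma line in the left liver lobe of male C57BL/6 mice that were 6 to 8 weeks old when bought. Mice received PBS, or an anti-PD-1 antibody (clone RMP1-14) that blocks an inhibitory receptor of T cells, 5 times at intervals of 4 days from day 10 to day 26, and RNA of whole tumors was sequenced on day 27. The 3 largest antibody-treated tumors form the anti-PD-1 nonresponsive group, the 3 smallest form the anti-PD-1 responsive group, tumors of intermediate size were left out, and 3 PBS tumors complete the set. The responsive and nonresponsive groups therefore shared line, host and treatment and differed in the tumor size by which they were picked. PBS tumor 1 stood apart from the other tumors: entries without a gene name held 81.5% of its FPKM (19.2 to 73.2% elsewhere) and its immune markers were low, so results are also given without it where it changes them.

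Classically activated macrophages are known for 3 kinds of product. Secreted cytokines (interleukin-1 beta and alpha, tumor necrosis factor, interleukin-6 and the p40 chain of interleukin-12 and interleukin-23) recruit and activate other cells, enzymes make nitric oxide (Nos2) and prostaglandins (Ptgs2, also called COX-2), and surface proteins (Cd80, Cd86, Cd40) give or receive costimulatory signals in contact with T cells. None of these genes belongs to macrophages alone: neutrophils also make interleukin-1 beta, dendritic cells also carry the costimulatory proteins, and stromal and tumor cells can make interleukin-6 and COX-2. The tables hold whole tumors, so more cells of a type and more RNA per cell cannot be told apart.

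Promoter sequence is shown for the 4 genes whose levels moved together most closely over the tumors (Il1b, Il1a, Ptgs2 and Tnf) and for Il6, the cytokine with the most motif matches. Each line gives the 120 bases just before the RefSeq transcript start on GRCm38.p6, read 5′ to 3′ on the strand of the gene, with capitals for letters that match a searched motif.
Il1b, chr2:129371140-129371259, minus strand: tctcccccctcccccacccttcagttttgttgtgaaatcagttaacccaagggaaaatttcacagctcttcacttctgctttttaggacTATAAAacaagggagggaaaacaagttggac
Il1a, chr2:129309973-129310092, minus strand: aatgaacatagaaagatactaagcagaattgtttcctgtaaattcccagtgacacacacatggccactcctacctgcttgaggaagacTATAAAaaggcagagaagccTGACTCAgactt
Ptgs2, chr1:150099911-150100030, plus strand: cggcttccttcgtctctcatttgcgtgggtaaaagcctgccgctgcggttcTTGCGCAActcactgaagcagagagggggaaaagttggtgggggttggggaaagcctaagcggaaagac
Tnf, chr17:35202008-35202127, minus strand: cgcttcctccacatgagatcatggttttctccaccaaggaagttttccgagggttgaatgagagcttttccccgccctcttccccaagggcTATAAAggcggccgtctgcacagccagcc
Il6, chr5:30012994-30013113, plus strand: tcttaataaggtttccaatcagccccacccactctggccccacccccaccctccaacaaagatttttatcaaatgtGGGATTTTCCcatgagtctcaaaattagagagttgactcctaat

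The search covered 250 bases before each start, and RefSeq windows were at hand for 7 of the 10 genes (Nos2, Cd86 and Cd40 had none in the table used). The letters TATAAA, on the strand of the gene, stood 29 bases before the start of Tnf, 31 before that of Il1b and 32 before that of Il1a, and 7.59% of all 32851 windows held them. The AP-1 letters TGANTCA, on either strand, were found before Il1a, Il6 and Cd80 (6.75% of all windows), and the C/EBP letters TTGCNNAA, on either strand, before Il6 and Ptgs2 (9.56%). The NF-kB consensus, searched on both strands, was matched once, 44 bases before the start of Il6 (7.25% of all windows), and the cyclic AMP response letters TGACGTCA were matched before none of the 7 (1.55%). These are matches of letters and were not tested as binding sites, and the tables of expression hold no measure of binding.

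Levels are given in FPKM, fragments per kilobase of transcript scaled to the mapped fragments of the library, a unit that can be set side by side between genes. Il1b was by far the most abundant of the 10, at 435 ± 323 FPKM (SD, n = 9 tumors), and it stood above the next gene, Nos2, in 9 of 9 tumors. Nos2 (54.8 ± 58.6), Il1a (39.7 ± 38.0), Ptgs2 (27.2 ± 25.2), Tnf (20.2 ± 14.2) and Cd40 (18.6 ± 5.04) followed, with SDs over tumors wider than the gaps between neighbouring means. Tumor by tumor, Il1a was above Ptgs2 in 9 of 9, Nos2 above Il1a in 7, Ptgs2 above Tnf in 6 and Tnf above Cd40 in 5. Cd86 had a mean of 13.4 ± 4.85 FPKM, Il6 of 4.68 ± 3.25 and Il12b of 1.47 ± 1.39, and Il12b reached an FPKM of 1 in only 4 of the 9 tumors. Cd80 is placed between Cd86 and Il6, with a median of 9.97 FPKM, and it was listed at 0 in PBS tumor 1.

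**Figure D1:**
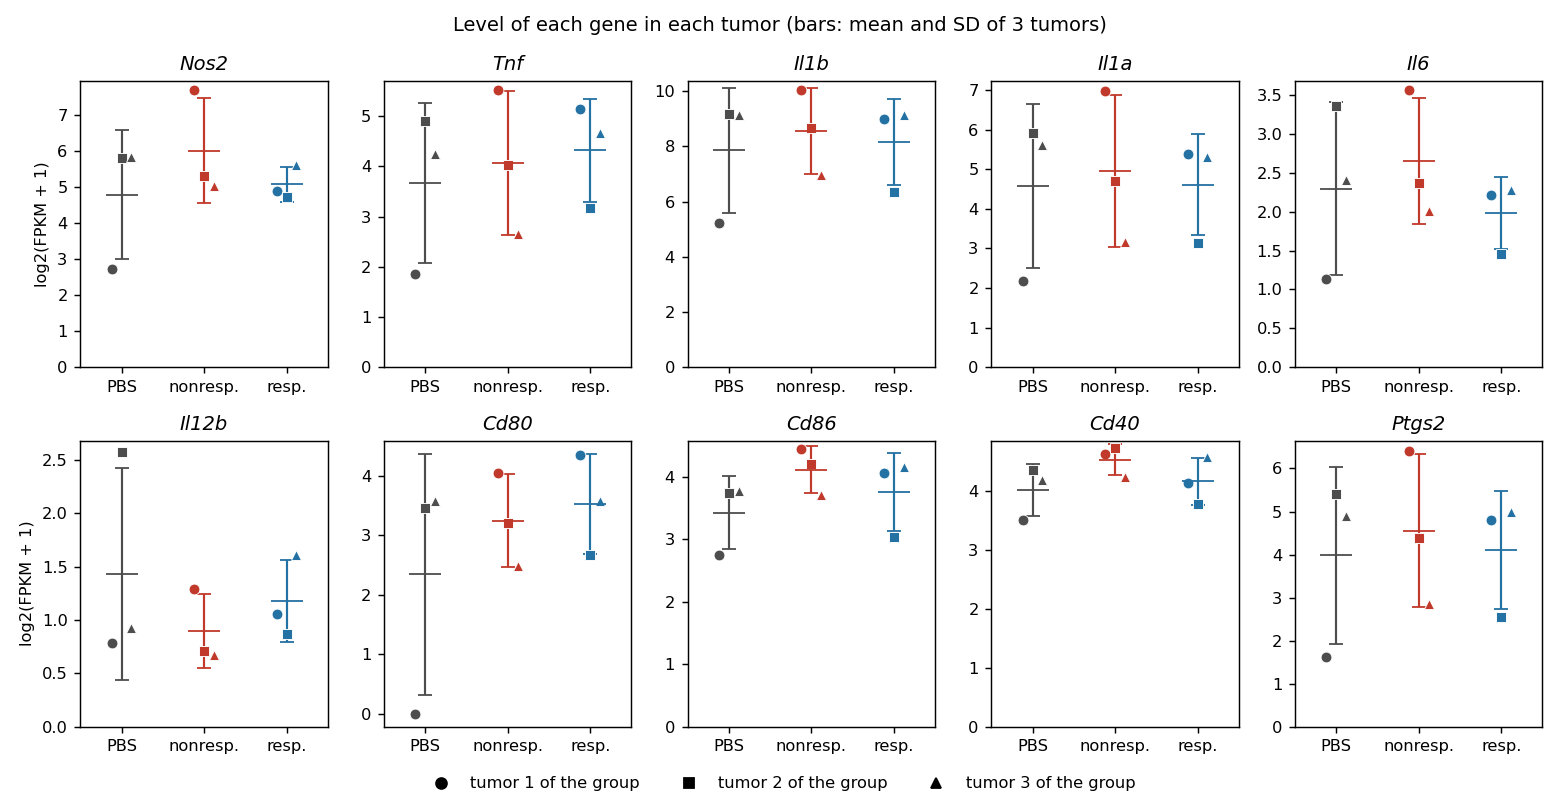
Level of each of the 10 genes in each tumor as log2(FPKM + 1), by group, with 1 marker shape per tumor number and bars for the mean and SD of 3 tumors (the Cd80 bar of the PBS group includes the tumor listed at 0). PBS tumor 1 is the lowest tumor for 9 of the 10 genes, and no gene separates any pair of groups.

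The cytokines were led by Il1b, the secreted interleukin-1 that the inflammasome activates. It was at 36.5, 576 and 568 FPKM in PBS tumors 1, 2 and 3, at 1062, 405 and 123 in the nonresponsive tumors and at 508, 80.8 and 559 in the responsive tumors. Each group held 1 low tumor, and the 3 groups overlapped across most of their range. Group means were 393 ± 309, 530 ± 482 and 383 ± 263 FPKM (SD, n = 3 each), and the highest tumor of a group stood 6.92-fold (responsive) to 15.8-fold (PBS) above its lowest.

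Il1a, the interleukin-1 that also acts from the cell surface and from dying cells, had its lowest tumors in common with Il1b. Its levels were 3.55, 59.6 and 48.0 FPKM in the PBS tumors, 126, 25.0 and 8.01 in the nonresponsive tumors and 40.7, 7.82 and 38.5 in the responsive tumors. Tnf, the founding cytokine of the TNF family, was at 2.63, 29.1 and 17.9 FPKM in PBS, at 44.9, 15.2 and 5.26 in nonresponsive tumors and at 34.3, 8.0 and 24.3 in the responsive group. For both genes the lowest tumors were PBS tumor 1, nonresponsive tumor 3 and responsive tumor 2, the same tumors that were lowest in their groups for Il1b.

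Il6 encodes a cytokine that drives the acute-phase response of hepatocytes. It was at 1.19, 9.27 and 4.30 FPKM in the PBS tumors, at 10.8, 4.2 and 3.04 in the nonresponsive tumors and at 3.67, 1.74 and 3.86 in the responsive tumors. The responsive tumors lay within the range of the PBS tumors, and 2 of the 3 of them also lay within that of the nonresponsive tumors. Il12b, the p40 chain, was close to the floor of the measurement, at 0.723, 4.97 and 0.905 FPKM in PBS, 1.45, 0.638 and 0.599 in the nonresponsive and 1.08, 0.825 and 2.06 in the responsive tumors. Its highest value came from PBS tumor 2, whose estimate carried Cufflinks bounds of 2.61 to 7.32 FPKM.

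Of the enzymes, Nos2, the inducible nitric oxide synthase, was at 5.59, 55.0 and 55.4 FPKM in PBS tumors, at 205, 38.5 and 31.7 in nonresponsive tumors and at 28.4, 25.3 and 48.1 in responsive tumors. The nonresponsive mean (91.8 ± 98.2 FPKM) was above that of the responsive tumors (34.0 ± 12.4) through nonresponsive tumor 1, and the other two nonresponsive tumors lay within the responsive range. Ptgs2, the inducible cyclooxygenase, was at 2.09, 41.4 and 29.0 FPKM in PBS, at 84.0, 20.1 and 6.25 in nonresponsive tumors and at 27, 4.81 and 30.7 in the responsive group. In the PBS tumors its highest value was 19.8-fold above its lowest, the widest ratio among the 9 genes that were not listed at 0 there.

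The costimulatory genes varied less, apart from Cd80. Cd40, the receptor through which helper T cells license antigen-presenting cells, was at 10.4, 19.5 and 17.3 FPKM in PBS, at 23.7, 25.8 and 18 in nonresponsive tumors and at 16.6, 12.9 and 23.0 in the responsive group. Cd86, a ligand of the T cell receptors CD28 and CTLA-4, was at 5.73, 12.4 and 12.7 FPKM in PBS, at 20.7, 17.4 and 12 in nonresponsive tumors and at 15.8, 7.17 and 16.8 in the responsive group. Both were highest on average in the nonresponsive tumors, and in both the groups overlapped. The Cd86 estimate of PBS tumor 3 was loose, with Cufflinks bounds from 0 to 29.1 FPKM.

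Cd80, the other ligand of CD28 and CTLA-4, was listed at 0 in PBS tumor 1 and stood at 9.97 and 10.9 FPKM in PBS tumors 2 and 3. It was at 15.4, 8.22 and 4.58 FPKM in the nonresponsive tumors and at 19.3, 5.33 and 10.9 in the responsive tumors. Leaving the 0 aside, the PBS tumors lay inside the ranges of both antibody-treated groups.

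The first comparison asked whether these genes differed between the small and the large tumors under the same antibody. On the log2(FPKM + 1) scale, which understates the change of low genes, 3 of the 10 were on average higher in responsive than in nonresponsive tumors (Tnf, Il12b and Cd80, by 0.26 to 0.29) and 7 were lower. The largest differences were those of Nos2, at -0.94 ± 0.75 (SE, adjusted p = 0.973), and Il6, at -0.67 ± 0.47 (adjusted p = 0.973). None of the 10 passed an adjusted or an unadjusted p of 0.05 with limma, and none separated the groups. Of all 13835 genes tested, 0.116% passed the adjusted threshold, 5.49% the unadjusted one and 10.5% had groups that did not overlap. The median over the 10 genes was -0.37, beside -0.07 over all genes tested, and it turned to 0.37 when responsive tumor 2 was left out.

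Responsive tumors were next set against PBS tumors. The responsive tumors were picked as the smallest after treatment, and no such picking is stated for the PBS tumors. An effect of the antibody therefore cannot be told apart from the picking by size. In this comparison 8 genes were on average higher and 2 (Il6 and Il12b) lower. The largest difference was that of Cd80, at 1.18 ± 1.07 (SE, adjusted p = 0.527, limma), and it was 0.01 without PBS tumor 1, the tumor listed at 0. Tnf differed by 0.65 ± 0.93 and the others by less. None of the 10 passed either threshold and none separated the groups, where 0.231% of 13842 genes passed the adjusted threshold, 17.2% the unadjusted one and 28% had groups that did not overlap. The median of the 10 genes was 0.22 and fell to -0.66 without PBS tumor 1 (median of all genes, -0.11).

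Nonresponsive tumors, picked as the largest after the same antibody course, were then set against PBS tumors, with the same limit. On average 9 genes were higher in nonresponsive tumors and Il12b was lower, and Il12b passed the filter on low values in too few of these 6 tumors to be fitted. The smallest p-values belonged to the costimulatory genes Cd86 (0.69 ± 0.36, SE) and Cd40 (0.52 ± 0.29), both with an adjusted p of 0.717 in limma. Nos2 differed by 1.23 ± 1.12, Cd80 by 0.90 ± 1.06 and Il1b by 0.71 ± 1.33. None of the 9 genes fitted passed either threshold, and none of the 10 separated the groups (background, 0.0797% of 13796 genes adjusted, 3.23% unadjusted and 8.21% without overlap). Without PBS tumor 1 the median of the fitted genes turned from 0.57 to -0.27 (median of all genes, -0.06).

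**Figure D2:**
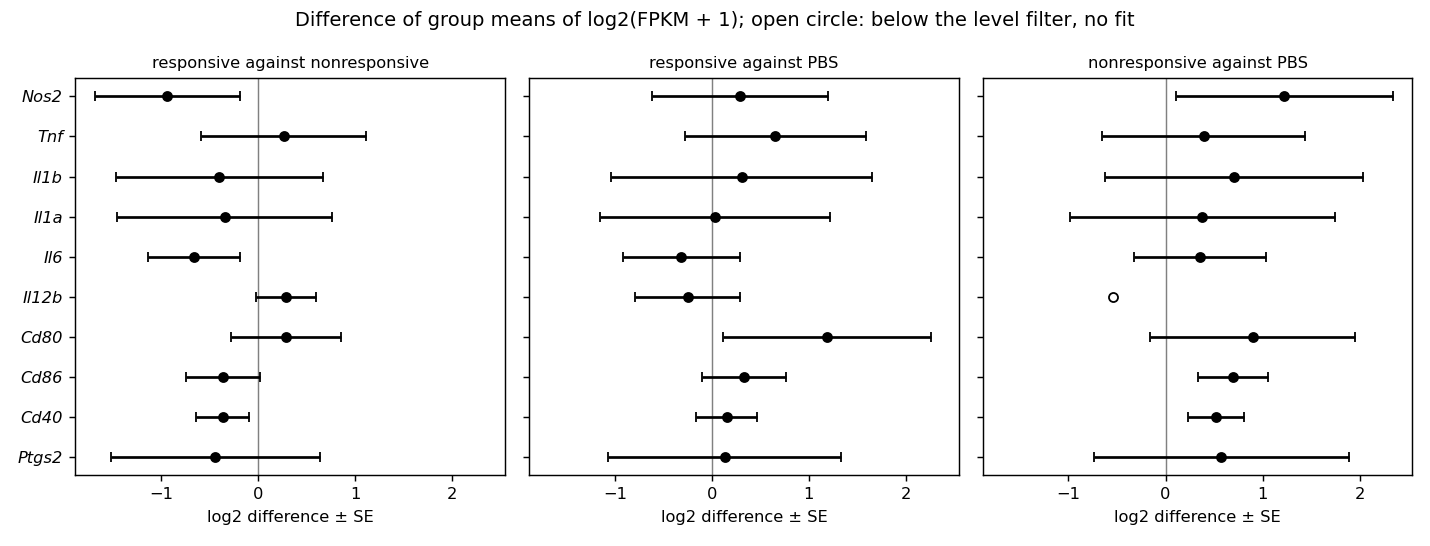
Difference between group means of log2(FPKM + 1) for the 10 genes in the 3 comparisons, with the SE from limma (3 tumors a group). The genes with the widest bars, Il1b, Il1a and Ptgs2, are those that varied most within groups, and the lowest adjusted p is 0.527.

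Two-sided exact permutation tests of single genes, which with 3 tumors against 3 cannot go below p = 0.1, gave p-values of 0.2 or more for every gene in every comparison. The lowest, 0.2, was that of Cd40 in responsive against nonresponsive and in nonresponsive against PBS tumors. The 3 comparisons share tumors, so their values for a gene are not separate evidence.

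Most of these genes varied widely between tumors of the same group. The SD within groups on the log2 scale was 1.83 for Il1b, 1.79 for Il1a, 1.76 for Ptgs2, 1.38 for Tnf, 1.36 for Nos2 and 1.35 for Cd80, against a median of 0.408 over the 14464 genes that reached an FPKM of 1 in 3 or more tumors. Il6 (0.840), Il12b (0.648) and Cd86 (0.539) were nearer that median, and Cd40, at 0.375, was below it. Such a spread was not particular to the 10 genes: the mean of 10 neutrophil markers had SDs of 1.46, 1.28 and 1.10 in PBS, nonresponsive and responsive tumors, and the mean of the 10 genes had 1.45, 1.05 and 0.79. Differences between the 3 groups took up 1.36% of the variation of Il1a, 2.86% of that of Ptgs2 and 3.63% of that of Il1b, and up to 33.6% of that of Cd40, beside a median of 31.1% over all those genes. Of the 90 pairs of tumors within a group, summed over the 10 genes, 73 had Cufflinks bounds that did not overlap, so most of these gaps were wider than the uncertainty of the single estimates. Those bounds cover the estimate within a library and not the variation between mice.

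The tumors that were low for one gene were low for nearly all. PBS tumor 1 was among the 3 lowest tumors for 10 of 10 genes, responsive tumor 2 for 9 and nonresponsive tumor 3 for 8, while nonresponsive tumor 1 was among the 3 highest for 10 of 10. Averaged over the 10 genes on the log2 scale, the level was 2.18, 4.87 and 4.46 in the PBS tumors, 5.46, 4.23 and 3.38 in the nonresponsive tumors and 4.50, 3.17 and 4.59 in the responsive tumors. Relative sequencing depth, estimated from the lowest nonzero entries, ran from 0.936 to 1.07 of that of PBS tumor 1 and did not follow this order. That estimate is rough, as it rests on 15.6 to 20.3% of the low entries compared in each other tumor.

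Between genes, the tightest pair was Il1a with Ptgs2 (Pearson r = 1.00 over the 9 tumors, Spearman rho = 0.95, adjusted exact permutation p = 0.0003 for r, over 45 pairs). Il1b followed both, with r = 0.99 with Ptgs2 and 0.98 with Il1a, and Tnf had r of 0.95 to 0.96 with the 3 of them. All 36 pairs among the 9 genes other than Il12b had an r of 0.69 or more and an adjusted permutation p below 0.05, and 20 of them passed for rho. Computed on deviations from the group means, r ran from 0.72 to 1.00 in these pairs and 33 passed, so the shared movement was present within groups. Without the 2 tumors farthest from the median of the first gene of a pair, r ran from 0.23 to 0.99 and 8 passed, among them every pair of Il1b, Il1a, Ptgs2 and Tnf. The other pairs did not pass with 7 tumors, where fewer points and a narrower range also make a call harder to reach.

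Il12b was less closely tied to the others over all 9 tumors. Its r with the other 9 genes was 0.24 (Cd86) to 0.64 (Il6), none of the 9 passed for r and 3 passed for rho (Tnf, Ptgs2 and Il1b). Within groups its r was 0.55 to 0.84 (median 0.64), and 1 of the 9 passed, that with Il6. Its levels lie near an FPKM of 1, where few fragments stand behind a value.

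**Figure D3:**
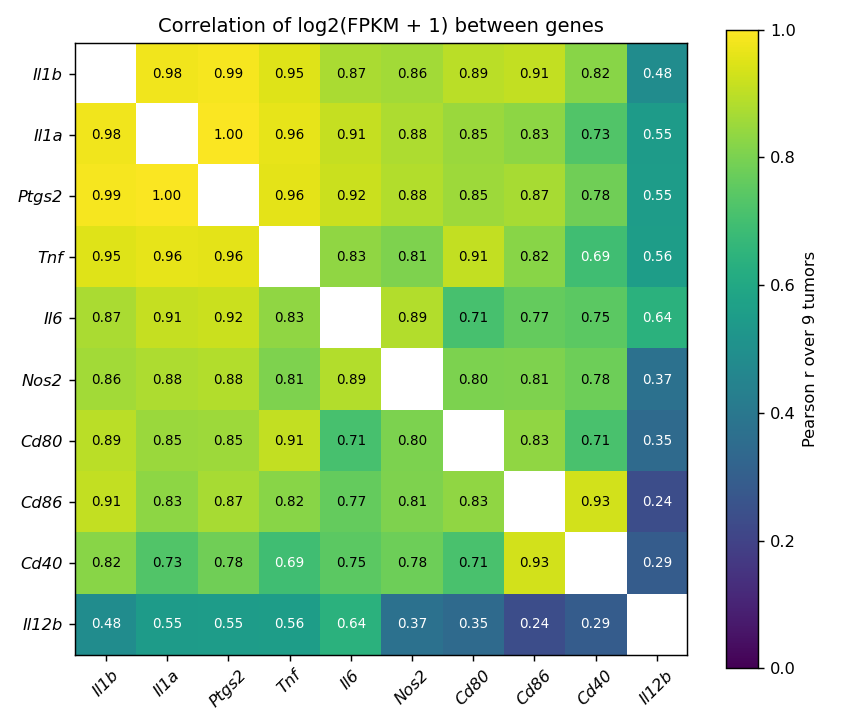
Pearson r of log2(FPKM + 1) over the 9 tumors for each pair of the 10 genes, coloured from 0 to 1. Il1b, Il1a, Ptgs2 and Tnf form a block of r from 0.95 to 1.00, and Il12b reaches at most 0.64 with any other gene.

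The genes most like each member over the 9 tumors were then listed, by Pearson r among 10778 or 10779 genes whose FPKM was 1 or higher in every tumor, as a description. For Il1b they were Samsn1, S100a9 and S100a8 (r = 0.99 each), the last 2 being the calprotectin genes that neutrophils hold in large amounts (the S100a8 entry also names S100a6 in 1 or more tumors). Il1a and Ptgs2 were each other's nearest gene, and next to both came Nlrp3, the sensor of the inflammasome (0.98 with Il1a and 0.99 with Ptgs2), and Srgn. Tnf was followed by Hcar2 and Clec4e (0.99 each) and Khdrbs3, and Nos2 by Cd274, which encodes the PD-1 ligand PD-L1 (0.98), Per1 and Hk3 (0.95 each). The nearest genes to Il6 were Mmp10, Mmp25 and Crem (0.96 each), and to Il12b Gm39469, Bmp2 and Oas1c (0.92 to 0.95). Cd80 was followed by Gmfg, Lcn2 and Saa3 (0.97 to 0.98), Cd86 by Cytip (0.98) and Alox5ap (0.97), and Cd40 by Mob3a, Ifi209 and Klra2 (0.97 each). The Cd274 entry also names the gene Ric1.

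Marker lists of cell types were set beside the 10 genes. All 15 general macrophage markers were at an FPKM of 1 or more in each tumor, and their summed level ran from 1980 to 5506 FPKM in PBS tumors, from 4338 to 10606 in nonresponsive tumors and from 3968 to 11651 in responsive tumors. The 10 neutrophil markers summed to 180 to 2484 FPKM in PBS tumors, 561 to 5301 in the nonresponsive group and 444 to 3444 in the responsive group, where 3 of the 10 were below an FPKM of 1 in PBS tumor 1 and none at 0. Averaged on the log2 scale, the macrophage list was at 6.80 ± 0.66 in PBS, 7.79 ± 0.62 in nonresponsive and 7.35 ± 0.58 in responsive tumors (SD, n = 3), and the neutrophil list at 4.29 ± 1.46, 5.38 ± 1.28 and 4.94 ± 1.10. The hepatocyte list was at 5.84 ± 1.81, 7.35 ± 0.91 and 8.83 ± 0.57 in PBS, nonresponsive and responsive tumors. How far any of these cell types accounts for the levels of the 10 genes was not tested.

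**Figure D4:**
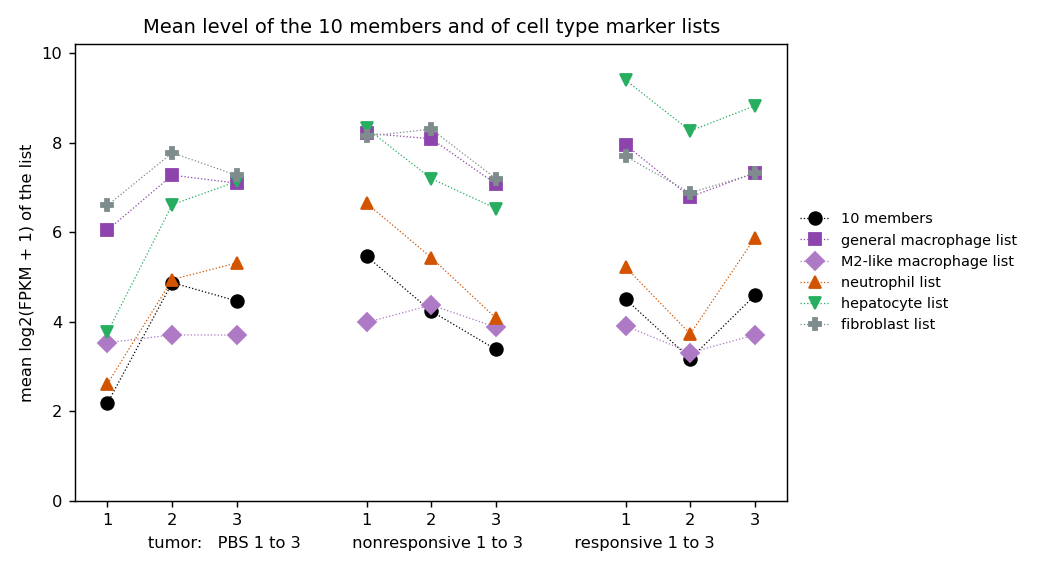
Mean log2(FPKM + 1) of the 10 genes and of 5 cell type marker lists in each tumor, tumors of a group joined by dotted lines. The 10 genes and the neutrophil list are lowest in PBS tumor 1 (2.18 and 2.62) and highest in nonresponsive tumor 1 (5.46 and 6.65), whereas the mean of the M2-like list stays between 3.31 and 4.37. Single genes of the M2-like list could vary more than that mean, such as Trem2 (11.4 to 85.3 FPKM) and Chil3 (2.37 to 39.5), while Tgfb1 ran from 78.7 to 113.

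Over the 9 tumors, the mean of the neutrophil list and the level of a member had a Pearson r of 0.81 to 0.96 for every gene but Il12b (0.33). The highest were those of Il1b (0.96), Cd86 (0.95), Ptgs2 (0.95) and Il1a (0.93). In the family of 50 relations (10 genes and 5 lists), 9 of the 10 neutrophil relations had an adjusted exact permutation p below 0.05 for r, and 1, that of Cd86, for rho (0.43 to 0.97 over the 10 genes). Within groups, on deviations from the group means, 9 of 10 also passed, with r up to 0.98 for Il1b. Leaving out PBS tumor 1 and responsive tumor 2, the tumors farthest from the median of the list, left r at 0.88 for Il1b and 0.54 for Il6, and none passed the adjustment at 7 tumors.

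With the macrophage list r was 0.71 to 0.93 for all but Il12b (0.14), and 8 of 10 relations passed for r and 1, again that of Cd86, for rho. Cd86 held the closest relation (r = 0.93, rho = 0.97). For Nos2, r fell from 0.75 to -0.02 when PBS tumor 1 and nonresponsive tumor 1 were left out, and that relation rests on those 2 tumors. Of the other lists, fibroblast markers had r of 0.27 to 0.86 with the 10 genes (9 passing), hepatocyte markers 0.14 to 0.88 (2 passing) and dendritic cell markers 0.43 to 0.67 (none passing). Within groups the hepatocyte relations were as close as the neutrophil ones by their median r (0.91 and 0.92) and 6 of 10 passed, beside 5 for macrophage, 1 for fibroblast and 1 for dendritic cell markers. Without the 2 farthest tumors of each list, 3 relations with fibroblast markers passed (median r = 0.86) and none with the other 4 lists (median r from 0.18 to 0.77). The tumors left out differed between lists. For fibroblast markers they were nonresponsive tumors 1 and 2, so PBS tumor 1 stayed in, whereas each of the other 4 lists lost PBS tumor 1. These counts are therefore not like for like. The lists themselves moved together (macrophage with neutrophil, r = 0.87; macrophage with fibroblast, 0.93), so a relation with one list is not particular to it.

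**Figure D5:**
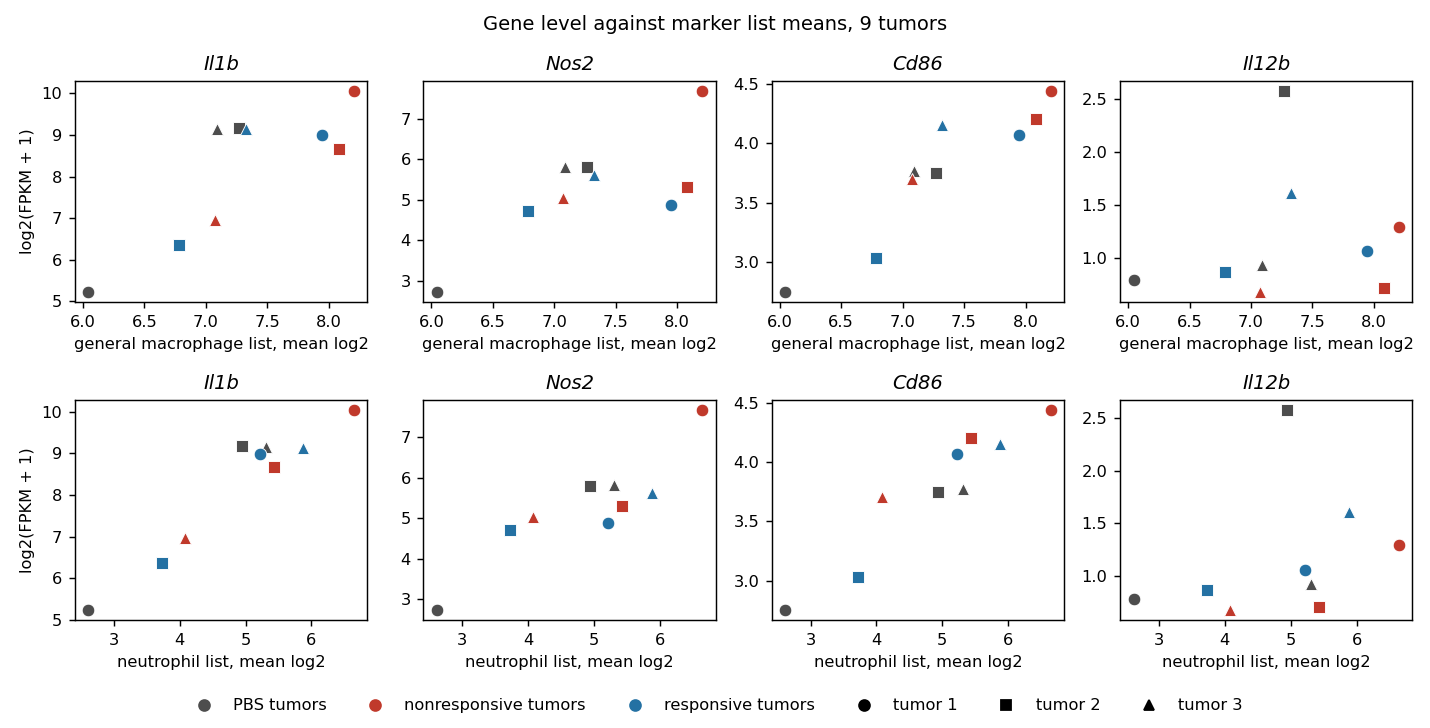
Level of Il1b, Nos2, Cd86 and Il12b, as log2(FPKM + 1), against the mean log2 level of the general macrophage list (top) and of the neutrophil list (bottom) in 9 tumors, with colours for groups and shapes for tumor numbers. Il1b and Cd86 climb with both lists (r of 0.82 to 0.96), Nos2 against the macrophage list depends on its end points, and Il12b has an r of 0.14 with the macrophage and 0.33 with the neutrophil list (0.51 and 0.57 within groups).

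The spread within groups was also taken after subtracting a list mean from each gene. For Il1b, the SD within groups went from 1.83 to 1.28 relative to the macrophage list and to 0.610 relative to the neutrophil list. Il1a, Ptgs2, Tnf, Nos2 and Cd80 behaved likewise, ending at 0.463 (Tnf) to 0.636 (Cd80) relative to the neutrophil list. Cd86 went from 0.539 to 0.277 relative to the macrophage list and to 0.793 relative to the neutrophil list, and Il6 also had its smallest spread relative to the macrophage list (0.476). The neutrophil list itself varied within groups with SDs of 1.10 to 1.46. Subtracting it widens a gene of small spread, such as Cd86 or Cd40, however closely that gene follows the list. Cd86 had an r within groups of 0.95 with the neutrophil list and 0.90 with the macrophage list. These SDs therefore do not show which list a gene follows. The spread of Cd40, 0.375 at first, was not made smaller by either list. These SDs are a description, and their differences were not tested.

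The 10 genes were then compared between groups as log2 differences from the mean of the macrophage list. That list moved with the neutrophil list (r = 0.87), so these differences are not levels per macrophage. In responsive against nonresponsive tumors 7 of the 10 were on average higher (median difference 0.07). Against PBS tumors the directions of the plain scale turned, with 2 of 10 higher in responsive tumors (median -0.33, where 8 were higher before) and 1 of 10 higher in nonresponsive tumors (median -0.44, where 9 were). PBS tumor 1 weighs on these counts. Tnf and Cd80, the 2 higher in responsive tumors (means -3.03 and -3.83), were at -4.18 and -6.04 there. In PBS tumors 2 and 3 both lay above those means (Tnf -2.36 and -2.85, Cd80 -3.81 and -3.52). Nos2, the 1 higher in nonresponsive tumors (mean -1.78), was at -3.32, -1.46 and -1.27 in PBS tumors 1 to 3. Nos2, Il1b, Il1a and Ptgs2 overlapped between the responsive and the PBS tumors (exact permutation p = 0.6 to 0.8). Between responsive and nonresponsive tumors Cd80 alone separated the groups. It was at -3.61, -4.12 and -3.75 log2 units from the macrophage mean in the responsive tumors and -4.17, -4.88 and -4.59 in the nonresponsive tumors. The gap between the nearest tumors, responsive tumor 2 (-4.12) and nonresponsive tumor 1 (-4.17), was narrow. An entry shared by C1qb and C1qc counts for both in the macrophage mean of nonresponsive tumors 1 and 2. Centred on Csf1r alone, Cd80 also separated the groups. Relative to the list, the Cd80 difference was 0.72 (exact permutation p = 0.1, the smallest possible), and 11.3% of all genes centred in the same way had groups that did not overlap. Il6 was lower in responsive than in PBS tumors by 0.86 on this scale without overlap (exact permutation p = 0.1, background 10.9%), and Il12b was lower in nonresponsive than in PBS tumors by 1.52 (p = 0.1, background 16%). Il12b did not pass the level filter in that comparison, and the background covers only genes that did. Its plain difference was -0.54, while the macrophage list was at 7.79 in nonresponsive and 6.80 in PBS tumors. Cd80, Il6 and Il12b are each 1 gene of 10, a share near the background. With a pseudocount of 0.1 in place of 1 the Cd80 and Il6 groups overlapped.

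The partners of these genes were counted from lists by role. Among 10 receptors and antagonists of the cytokines, the most abundant were Il1rn, the interleukin-1 receptor antagonist (148 ± 84.3 FPKM, SD, n = 9), and Tnfrsf1a, the main TNF receptor (98.7 ± 14.7). Of the 9 tested, 1 (Il6ra) had an unadjusted p below 0.05 between responsive and nonresponsive tumors, beside 5.49% of all genes. Il6ra, the ligand-binding chain of the interleukin-6 receptor, was at 9.63 ± 1.11 FPKM in responsive and 14.8 ± 1.97 in nonresponsive tumors (log2 difference, -0.57 ± 0.19, SE; adjusted p = 0.885, limma). None of this list had such a p in the comparisons with PBS.

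Of 10 partners and relatives of the costimulatory genes, Cd274 was the most abundant (78.8 ± 37.4 FPKM), followed by the B7 family gene Cd276 (20.003 ± 8.15). Cd276 was at 13.8 ± 5.73 FPKM in responsive and 27.2 ± 6.09 in PBS tumors (-0.99 ± 0.36, adjusted p = 0.283). Tnfsf9, the ligand of the costimulatory receptor 4-1BB, was at 12.9 ± 3.82 FPKM in nonresponsive and 21.9 ± 2.55 in PBS tumors (-0.74 ± 0.25, adjusted p = 0.717). Both lay without overlap, as did 28% of all genes between responsive and PBS tumors and 8.21% between nonresponsive and PBS tumors. In each of those comparisons 2 of the 9 genes tested from this list lay without overlap. Neither Cd276 nor Tnfsf9 passed the adjustment.

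None of the 21 Toll-like receptor and NF-kB signaling genes, the pathway that induces many of these cytokines, had an unadjusted p below 0.05 in any comparison. Its most abundant members, the NF-kB inhibitor Nfkbia (276 ± 137 FPKM) and the lipopolysaccharide co-receptor Cd14 (214 ± 132), differed by at most 0.77 on the log2 scale between groups. Of 8 inflammasome and processing genes, led by Pycard (45.5 ± 17.9 FPKM) and Casp4 (37.5 ± 9.13), the DNA sensor Aim2 was at 19 ± 5.27 FPKM in responsive and 34.9 ± 7.20 in PBS tumors (-0.86 ± 0.27, adjusted p = 0.281). Aim2 was the 1 gene of the 8 with an unadjusted p below 0.05 there, beside 17.2% of all genes. No gene of that list had such a p in the other comparisons.

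Il12b pairs with other chains. Il23a, which joins p40 in interleukin-23, was at 2.84 ± 0.0918 FPKM in responsive and 5.38 ± 1.88 in PBS tumors (-0.69 ± 0.26, adjusted p = 0.284, limma). It was 1 of 2 genes tested there from this list and had an unadjusted p below 0.05, beside 17.2% of all genes. Ebi3, a chain of interleukin-27 and interleukin-35 whose entry also names Yju2, was the most abundant of the 4 partners (14.0 ± 5.20 FPKM) without a difference at that threshold.

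Nos2 draws on arginine, for which Arg1 (295 ± 187 FPKM, the most abundant of 10 genes of that list) competes, and which Ass1 and Asl rebuild from citrulline. Ass1 was at 166 ± 69.7 FPKM in responsive and 55.9 ± 33.7 in PBS tumors (1.74 ± 0.66, adjusted p = 0.287), and Asl, whose entry also names Gusb, at 50.9 ± 11 and 24.6 ± 3.98 (1.01 ± 0.22, adjusted p = 0.281). Of the 9 genes tested from this list, these 2 had an unadjusted p below 0.05, beside 17.2% of all genes. Both are urea cycle genes of hepatocytes, and 12 of the 13 hepatocyte markers were higher in the same comparison at that threshold. The share of that tissue in the difference was not tested.

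In prostaglandin metabolism, the synthase Ptges3, whose entry also names Baz2a, was the most abundant of 12 genes (87.1 ± 17.8 FPKM). Hpgd, which degrades prostaglandins, was higher in responsive (24.8 ± 6.37 FPKM) than in PBS tumors (7.42 ± 6.02) at an unadjusted p just under the threshold. It was the 1 such gene of 12 tested, beside 17.2% of all genes. Between nonresponsive and PBS tumors, where 3.23% of all genes had such a p, Ptgs1 and Ptgds did among the 12 tested. Ptgs1, the constitutive relative of Ptgs2, was at 15.3 ± 4.31 FPKM in nonresponsive and 8.32 ± 1.99 in PBS tumors (0.79 ± 0.29, adjusted p = 0.717), and Ptgds was lower there (0.852 ± 0.0847 against 3.54 ± 2.45 FPKM, adjusted p = 0.717). None of these genes passed the adjusted threshold in limma.

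The M2-like list, the opposite macrophage state in the usual scheme, was at 3.65 ± 0.10 in PBS, 4.08 ± 0.26 in nonresponsive and 3.64 ± 0.30 in responsive tumors on the mean log2 scale. None of its 13 genes had an unadjusted p below 0.05 between responsive and nonresponsive tumors, and 11 of them were on average lower in the responsive tumors (median log2 difference -0.35, beside -0.37 for the 10 M1-like genes). Against PBS, Mgl2, whose entry also names Clec10a (-1.15 ± 0.27), and Ccl17 (-1.48 ± 0.51) were lower and Cd163 (0.90 ± 0.35) higher in responsive tumors, each with an adjusted p of 0.281 or more. In that comparison 17.2% of all genes had an unadjusted p below 0.05. In nonresponsive tumors Chil3 (1.97 ± 0.69) and Stab1 (1.27 ± 0.46) were higher and Ccl22 (-0.61 ± 0.22) lower than in PBS tumors, each with an adjusted p of 0.717. There 3.23% of all genes had an unadjusted p below 0.05.

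The cell type lists are given by their 2 most abundant genes and those with an unadjusted p below 0.05. Among macrophage markers Lyz2 and Ctss were the most abundant, Fcgr1 was lower in responsive than in nonresponsive tumors (20.2 ± 3.45 against 37.9 ± 12 FPKM), and Fcgr1, C1qb and C1qc were higher in nonresponsive than in PBS tumors. C1qb and C1qc shared an entry in nonresponsive tumors 1 and 2, where each carries the level of that entry (869 and 972 FPKM). They are therefore not separate evidence there, and that level enters the macrophage sum and mean for both. Of dendritic cell markers, led by Fscn1 and Ccr7, Flt3 was higher in responsive than in nonresponsive tumors and Clec9a higher in responsive than in PBS tumors. Trem2 and Tgfb1 led the M2-like list, Dcn and Col3a1 the fibroblast list, S100a9 and S100a8 the neutrophil list and Afp and H19 the hepatoma list. H19 was lower in responsive than in nonresponsive tumors, and Igf2 higher in nonresponsive than in PBS tumors. In responsive against nonresponsive tumors 5 of 9 T cell markers (Cd3d, Cd2, Cd5, Lck and Zap70; Cd3g and Cd3e were the most abundant), 5 of 8 B cell markers (Ms4a1, Cd79a, Cd79b and Pax5 among them) and 7 of 13 hepatocyte markers (Alb, Cyp2e1, Cps1, Hpd, Tat and Apob among them; Apoa1 was the next most abundant) were higher, where 5.49% of all genes had such a p in either direction. Against PBS, 12 of the 13 hepatocyte markers were higher in responsive tumors, beside 17.2% of all genes in either direction. None of these genes passed the adjusted threshold in limma. The entries of Lyz2, Clec9a, Lck, Igf2 and H19 also name another gene in 1 or more tumors.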

How the data were processed

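Per the labels, RNA of 9 whole tumors was sequenced from TruSeq libraries, and the processing notes name TopHat2 2.1.1, Bowtie2 2.2.4 and the genome mm8. The authors deposited a Cufflinks table of FPKM for each tumor. Gene starts in these tables differed from GRCm38 for all 10 members and the tables name no build, so only the RefSeq promoters carry coordinates. A series-wide table of the authors' group values and comparisons was not used. FPKM was summed over the entries naming a gene. The depth behind FPKM is unknown apart from the relative estimate given.

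Values were tested as log2(FPKM + 1) in limma 3.58.1 (R 4.3.3) with a trend, the 6 tumors of each comparison, a filter that kept genes reaching an FPKM of 1 in 3 or more of them and Benjamini-Hochberg adjustment over all genes tested. Single members and correlations were tested by two-sided exact permutation (scipy 1.17.1). The fit was tested on simulated data, in which 200 genes were changed by 2 on the log2 scale. Of these, 45.7 to 51.5% passed the adjusted threshold, depending on the comparison. The members were not simulated apart, and most of them varied more within groups than the median gene. Named genes were the members, the 2 most abundant genes of each list and those with an unadjusted p under 0.05, plus the 3 genes most correlated with each member. A few genes that this rule would name are not reported here. Members and lists were chosen with earlier results of these data known. The labels number the tumors of each group, each taken as 1 mouse. Alternatives were other pseudocounts, filters, scalings, joint and blocked fits, joined loci and leaving out each tumor.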

Additional observations from a re-analysis of the deposited data

How the results depend on the processing

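No member passed an unadjusted p of 0.05 in any comparison under any alternative run. Of 225 member differences under settings that kept all tumors, 223 kept their direction, and with the named entries alone scaled to 1 total the Il1a and Ptgs2 differences of responsive against PBS tumors turned to -0.11 and -0.0044. Leaving out 1 tumor turned 36 of 168 member differences. In responsive against nonresponsive tumors the ranges were Tnf from -0.45 to 0.99, Il1b from -1.20 to 0.50, Il1a from -1.24 to 0.67, Cd80 from -0.12 to 0.71, Ptgs2 from -1.29 to 0.48. In responsive against PBS tumors they were Nos2 from -0.74 to 0.81, Tnf from -0.25 to 1.27, Il1b from -1.004 to 1.21, Il1a from -1.16 to 0.77, Il6 from -0.90 to 0.22, Cd86 from -0.0082 to 0.69, Cd40 from -0.10 to 0.34, Ptgs2 from -1.04 to 0.92. In nonresponsive against PBS tumors they were Tnf from -0.51 to 1.10, Il1b from -0.60 to 1.51, Il1a from -0.81 to 1.27, Il6 from -0.23 to 0.88, Cd80 from -0.27 to 1.51, Ptgs2 from -0.60 to 1.42. The low ends of the comparisons with PBS came without PBS tumor 1.

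The number of all genes with an adjusted p under 0.05 was unsteady, and the cause was not tested. For responsive against nonresponsive tumors it was 16, then 9 with no filter on low FPKM, 8 with a filter at an FPKM of 5, 8 with joined loci and 0 to 32 without 1 tumor. For responsive against PBS tumors it was 32, then 16 with all 9 tumors in 1 fit, 19 with joined loci and 7 to 49 without 1 tumor. For nonresponsive against PBS tumors it was 11, then 5 with no filter, 6 with all 9 tumors in 1 fit, 5 with joined loci and 2 to 30 without 1 tumor. With the replicate number as a block the counts were 1, 0 and 0. Deviations of same-numbered tumors had r from -0.39 to 0.48 over 14464 genes, and those of differently numbered tumors from -0.47 to 0.46. These few values cannot decide whether the numbers mark a shared batch, and the labels do not say.

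With a pseudocount of 0.1, 0 members separated responsive from nonresponsive or from PBS tumors relative to the macrophage list, where 1 did before. Relations with marker lists passing the adjustment fell from 28 to 3, all with fibroblast markers, and pairs of members from 36 to 8, without the 2 farthest tumors. For fibroblast markers PBS tumor 1 stayed in, whereas the other lists lost it. The alternatives for pairs were chosen after seeing the data. With 3 tumors a group, p-values measure the spread between these tumors only.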
